A study of Drosophila melanogaster with 8 samples.

Results

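The Drosophila corneal lens is a domed, chitin-containing cuticle that covers each ommatidium, the unit of the compound eye. Cone cells and pigment cells secrete it in layers onto their apical surface during pupal life. Its best known protein components are Crystallin (drosocrystallin, gene Crys), Retinin, Cpr66D and Cpr72Ec, all secreted structural proteins. Retinin is also known as a component of the nanoscale coating on the outer lens surface, and the Cpr genes are named for the chitin-binding cuticle protein family with the Rebers and Riddiford consensus. The 4 genes described here were taken by symbol from the deposited table of 15127 genes, in which Crys carries the symbol Cry. All 4 were found, and all 4 passed the filter on low values.

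RNA came from retinas dissected from female pupae 40 h after puparium formation, and polyadenylated transcripts were sequenced. The control animals carried w[1118] and gave 4 libraries, named W1, W2, W5 and W6 after the numbers in the column names. The other animals carried sev[14], an allele of sevenless, together with w[*], a white allele that the labels do not specify, and gave 4 libraries named S1, S2, S4 and S5. Both stocks therefore carry a w allele, and every library of a genotype came from 1 stock, so an effect of sev and any other difference between the stocks cannot be told apart. The labels give 10 to 20 retinas for each genotype and name no separate animals or days behind the libraries. The p-values therefore measure the library-to-library spread alone, which may be technical. Sevenless is the receptor that directs the R7 precursor to become a photoreceptor, and without it that cell develops as a cone cell, one of the cells that secrete the lens.

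The libraries held 13755813 to 19317307 recovered reads. The share of reads from genes with rRNA in their symbol was highest in S2 (12.5%) and S5 (10.1%), and it was 0.528% to 3.67% elsewhere. The transcript of sev stood between 222 and 350 normalized counts in control and between 119 and 416 in sev14 libraries (exact permutation p = 0.629, 2-sided), so its level does not check the sev14 label. The transcript of w stood between 5.60 and 14.4 in control and between 4506 and 7153 in sev14 libraries, and the labels leave the w allele of the sev14 stock open. All 8 retina markers (gl, eya, so, elav, chp, eys, rst and hbs) were detected in both genotypes, with summed levels of 34664 to 50684 in control and 40294 to 69220 in sev14 libraries, and none of the 8 was called by limma, edgeR or DESeq2, although 2 had an unadjusted limma p under 0.05. The share of all tested genes under that unadjusted cutoff was not counted, so such counts here and below have no background. In bulk RNA, fewer cells of a type and less RNA per cell cannot be told apart.

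The lens genes differed in opposite directions between the genotypes. The retinin transcript was lower and the Cpr66D transcript higher in sev14 retinas, while the lower mean of Crys and the higher mean of Cpr72Ec did not pass the test. The test was limma on log2(normalized count + 1) over 10192 genes, with Benjamini-Hochberg adjustment at 0.05. Of the 4 genes, 1 was called higher, where 2.38% of all tested genes were, and 1 was called lower, where 1.82% of all tested genes were. For 1 of the 4, retinin, the libraries of the genotypes did not overlap, as was the case for 11.1% of tested genes. With 4 genes these counts are a description of single genes and not of a group.

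**Figure D1:**
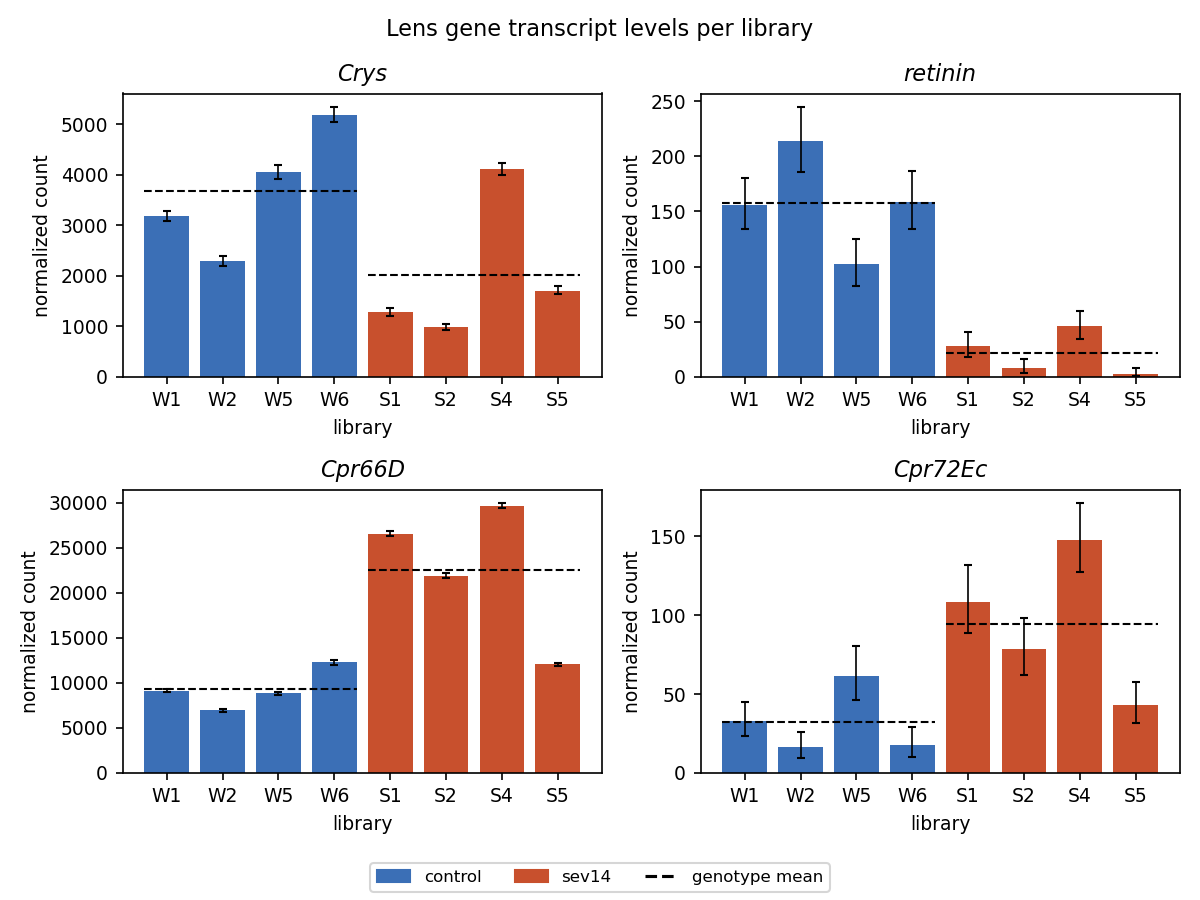
Normalized counts of the 4 lens genes in each library, with control libraries in blue and sev14 libraries in red. Error bars are 95% counting intervals and dashed lines are genotype means. All sev14 libraries are below all control libraries for retinin, and S4 is the highest sev14 library for all 4 genes.

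Retinin (FBgn0040074) lies on 3L at 16331933 to 16332789, plus strand, and its 1 annotated transcript has 2 exons and encodes 191 amino acids. Control libraries W1, W2, W5 and W6 had 156, 214, 102 and 159 normalized counts, and sev14 libraries S1, S2, S4 and S5 had 27.9, 8.37, 45.8 and 2.86. Every control library was above every sev14 library, and the sev14 libraries were spread more widely than the control libraries, which differed by 2.10-fold at most. The means were 158 ± 45.8 (SD, n = 4) and 21.2 ± 19.6 (n = 4), which is 7.42-fold lower in sev14 retinas. On the log2 scale retinin fell by 3.37 ± 0.70 (SE; limma adjusted p = 0.0245), with 4 of 4 sev14 libraries below control. The exact permutation test gave p = 0.0286 (2-sided), the smallest that 70 arrangements allow.

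The retinin values rest on few reads in the sev14 libraries: 623 reads in the 4 control libraries together and 93 in the 4 sev14 libraries. In S5 there were 3 reads, with an exact 95% Poisson interval of 0.619 to 8.77 reads, and in S2 there were 8, with an interval of 3.45 to 15.8. In S4, the highest sev14 library, there were 56 reads (42.3 to 72.7), and in W5, the lowest control library, 91 reads (73.3 to 112). The intervals cover counting error only. The retinin call was lost without W1, W2, W5, W6 or S2 (limma adjusted p 0.0502 to 0.0814), and the log2 change was -2.06 without S2 and S5.

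Crys (FBgn0005664) lies on 2L at 11944129 to 11947131, plus strand, and both of its annotated transcripts encode 477 amino acids. Crystallin is a major protein of the lens. The normalized counts were 3180, 2287, 4048 and 5188 in control libraries W1, W2, W5 and W6, and 1284, 987, 4108 and 1708 in sev14 libraries S1, S2, S4 and S5. S4 lay inside the control range, and the other 3 sev14 libraries lay below every control library. The means were 3676 ± 1238 in control and 2022 ± 1422 in sev14 retinas. The log2 difference of -1.02 ± 0.41 (SE; 95% interval -1.93 to -0.12) did not pass the test (limma adjusted p = 0.228; exact permutation p = 0.114, 2-sided).

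The Crys result depended on which sev14 libraries were kept. Without S4 the sev14 mean was 1326 ± 362 (n = 3) and the log2 difference was -1.44 (limma adjusted p = 0.0228). Leaving out W6 as well gave -1.25 (limma adjusted p = 0.0440). Leaving out S2 and S5 instead gave -0.61 (limma adjusted p = 0.594). W6 and S4 were the highest libraries of their genotypes for Crys, and both also had the lowest summed level of 7 optic lobe and brain neuron markers within their genotype and the highest of 13 late photoreceptor genes. The neuron markers summed to 2490 in W6 and to 3565 or more in W1, W2 and W5, with a highest sum of 7475. They summed to 1735 in S4 and to between 2853 and 7311 in S1, S2 and S5. The summed late photoreceptor level was 45593 in W6 and 45828 in S4, against 23130 to 33982 in the other 6 libraries. By the mean log2 deviation of the 10 tested late photoreceptor genes, W6 was again the highest control library (0.58), but S4 (-0.25) was below S2 (-0.09). The part of either in the Crys difference was not tested.

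Cpr66D (FBgn0052029) lies on 3L at 8640439 to 8643584, plus strand, with 1 annotated transcript of 3 exons that encodes 270 amino acids. Normalized counts of 9137, 6965, 8819 and 12262 were found in control libraries W1, W2, W5 and W6, and of 26587, 21893, 29671 and 12043 in sev14 libraries S1, S2, S4 and S5. The genotypes overlapped at 1 point, since S5 lay just under W6, while the other 3 sev14 libraries were above every control library. The means were 9296 ± 2198 and 22549 ± 7699, a ratio of 2.43. Cpr66D rose by 1.23 ± 0.29 on the log2 scale (SE; limma adjusted p = 0.0425; above all control libraries in 3 of 4 sev14 libraries). The exact permutation test of this gene gave p = 0.0571 (2-sided).

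The Cpr66D call lay near the threshold. Leaving out any library but W6 and S5 ended it (limma adjusted p 0.0756 to 0.125), while without S5 the log2 change was 1.50 (limma adjusted p = 0.00641). Scaling by total reads, which moved the median gene by -0.14, gave 1.09, or 1.22 relative to that median, with a limma adjusted p of 0.0757. Tracheal markers (btl, trh and dysf, deposited as dys) also had higher sums in 3 sev14 libraries. The sums were 50.5 to 132 in control libraries, and 413, 363, 180 and 88.7 in S1, S2, S4 and S5, with 1 of the 3 genes at 0 in W6 and in S5. None of the 3 was called by limma or edgeR, 1 was called higher by DESeq2, and 2 had an unadjusted limma p under 0.05. Over all tested genes DESeq2 called 503 higher. Their part in the Cpr66D result was not tested.

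Cpr72Ec (FBgn0036619) lies on 3L at 16365894 to 16367340, minus strand, and has a single exon that encodes 429 amino acids. The control libraries W1, W2, W5 and W6 held 32.8, 16.1, 61.6 and 17.8 normalized counts, against 109, 78.5, 148 and 42.9 in S1, S2, S4 and S5. The groups overlapped, since S5 lay under W5, and the other 3 sev14 libraries were above all control libraries. The means were 32.1 ± 21.1 and 94.5 ± 44.6, from 124 and 402 reads. The log2 difference of 1.60 ± 0.51 (SE; 95% interval 0.45 to 2.74) did not pass the test (limma adjusted p = 0.132; exact permutation p = 0.0571, 2-sided).

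The authors' deposited table gave adjusted p values of 2.01e-05 for retinin, 6.57e-05 for Cpr66D, 0.0281 for Cpr72Ec and 0.508 for Crys. The signs of its log2 fold changes (-2.88, 1.28, 1.56 and -0.86) were those found here. Among all genes given an adjusted p by the authors' deposited table, 4.03% had one under 0.05 with a higher level in sev14 retinas, and 2.75% with a lower level. Cpr72Ec therefore passed 0.05 in the authors' deposited table and not in the limma fit. On the recovered reads its adjusted p was 0.173 by edgeR and 0.0581 by DESeq2.

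Levels were compared between the genes per kb of annotated exon. In control retinas Cpr66D stood at 8420 ± 1991 normalized counts per kb, Crys at 1626 ± 548, retinin at 198 ± 57.3 and Cpr72Ec at 22.2 ± 14.6 (SD, n = 4 each). No ranges of neighbours in this order overlapped: the lowest Cpr66D library was at 6309 and the highest Crys library at 2295, the lowest Crys library at 1011 and the highest retinin library at 268, and the lowest retinin library at 128 and the highest Cpr72Ec library at 42.6. Among 14898 genes with a length, Cpr66D ranked between 111 and 169 from the top, Crys between 442 and 1095, retinin between 4049 and 6019, and Cpr72Ec between 7700 and 8956. Cpr66D thus lay near the top of the list at this stage and Cpr72Ec in its lower part.

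In sev14 retinas the order of the lower pair changed. Cpr66D stood at 20424 ± 6974 per kb and ranked between 25 and 112, and Crys stood at 894 ± 629 per kb and ranked between 632 and 2722. Cpr72Ec came next with 65.3 ± 30.8 per kb, and retinin was last with 26.6 ± 24.5 per kb. The ranges of Cpr72Ec (29.7 to 102) and retinin (3.59 to 57.4) overlapped across libraries, but within each sev14 library the Cpr72Ec level was above that of retinin, by 1.78-fold to 8.27-fold. Within each control library retinin was above Cpr72Ec, by 3.00-fold to 24.1-fold. The largest folds rest on few reads: 3 of retinin and 45 of Cpr72Ec in S5, and 16 of Cpr72Ec in W2.

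**Figure D2:**
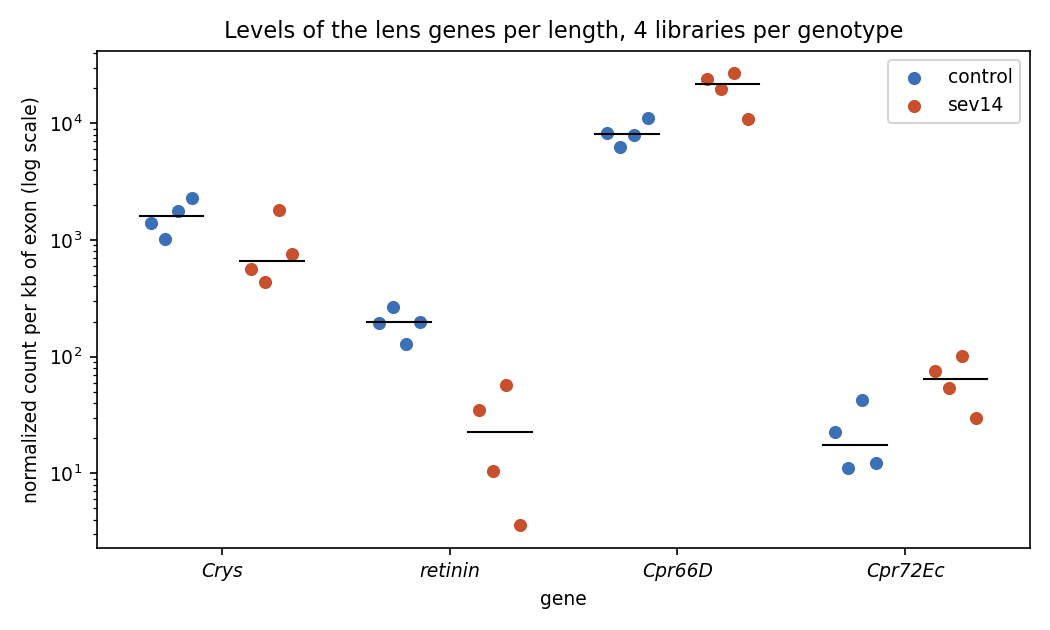
Normalized counts per kb of exon, on a log axis, for the 4 lens genes in control (blue) and sev14 (red) retinas. Points are libraries and lines are medians of 4. Within each library retinin is above Cpr72Ec in control and below it in sev14 retinas.

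Ratios within a library do not depend on how the libraries were scaled. The per-kb level of Cpr66D was 5.88, 6.24, 4.46 and 4.84 times that of Crys in W1, W2, W5 and W6. It was 42.4, 45.4, 14.8 and 14.4 times that of Crys in S1, S2, S4 and S5. Among control libraries this ratio varied 1.40-fold and Crys itself 2.27-fold, and among sev14 libraries the ratio varied 3.15-fold. The ratios of the genotypes did not overlap. The ratio combines the Cpr66D and Crys differences given above, so its separation is not a further result. S4, where Crys was as high as in control, still had a ratio above all control libraries, since Cpr66D was also highest there.

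The other ratios varied to different degrees within a genotype, and all but Cpr66D over Cpr72Ec were also separate between the genotypes. Crys over retinin was 3.77 to 14.0 in control and 16.2 to 211 in sev14 libraries, where the highest value comes from the 3 retinin reads of S5. Cpr66D over Cpr72Ec was 188 to 905 in control and 263 to 368 in sev14 libraries, so the ratio of both Cpr genes overlapped between the genotypes. Of the reads of the 4 genes together, Crys made up 24.1% to 31.1% in control and 4.30% to 12.4% in sev14 libraries, and Cpr66D 67.7% to 73.5% and 87.3% to 95.3%. Together the 4 genes held 0.0625% to 0.115% of all reads in control and 0.0776% to 0.215% in sev14 libraries, and these ranges overlap.

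**Figure D3:**
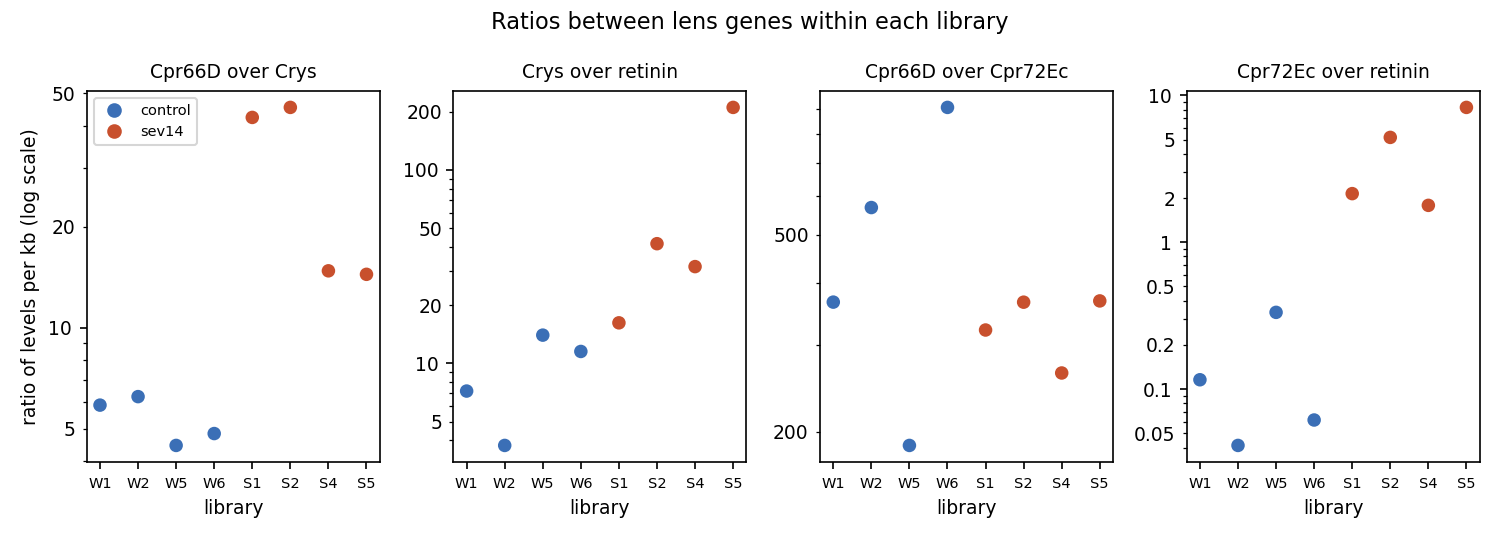
Ratios of per-kb levels between lens genes in each library, on log axes, for control (blue) and sev14 (red). Cpr66D over Crys lies between 4.46 and 6.24 in control and between 14.4 and 45.4 in sev14 libraries, and Cpr66D over Cpr72Ec overlaps between the genotypes.

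Within the sev14 genotype the 4 genes shared their highest library, S4. Retinin, Cpr66D and Cpr72Ec had the same order of libraries there (S4, S1, S2, S5), and Crys had the order S4, S5, S1, S2. In control they did not share an order: W6 was highest for Crys and Cpr66D, W2 for retinin and W5 for Cpr72Ec. W2 was lowest for Crys, Cpr66D and Cpr72Ec and highest for retinin. S5, which had the lowest retinin, Cpr66D and Cpr72Ec values of its genotype, is one of the 2 libraries rich in reads from genes with rRNA in their symbol. Without S2 and S5 the log2 difference was 1.62 for Cpr66D (limma adjusted p = 0.0129) and 2.15 for Cpr72Ec (limma adjusted p = 0.116). It was nearer to no change for Crys (-0.61, limma adjusted p = 0.594) and retinin (-2.06, limma adjusted p = 0.0327) than with all libraries.

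**Figure D4:**
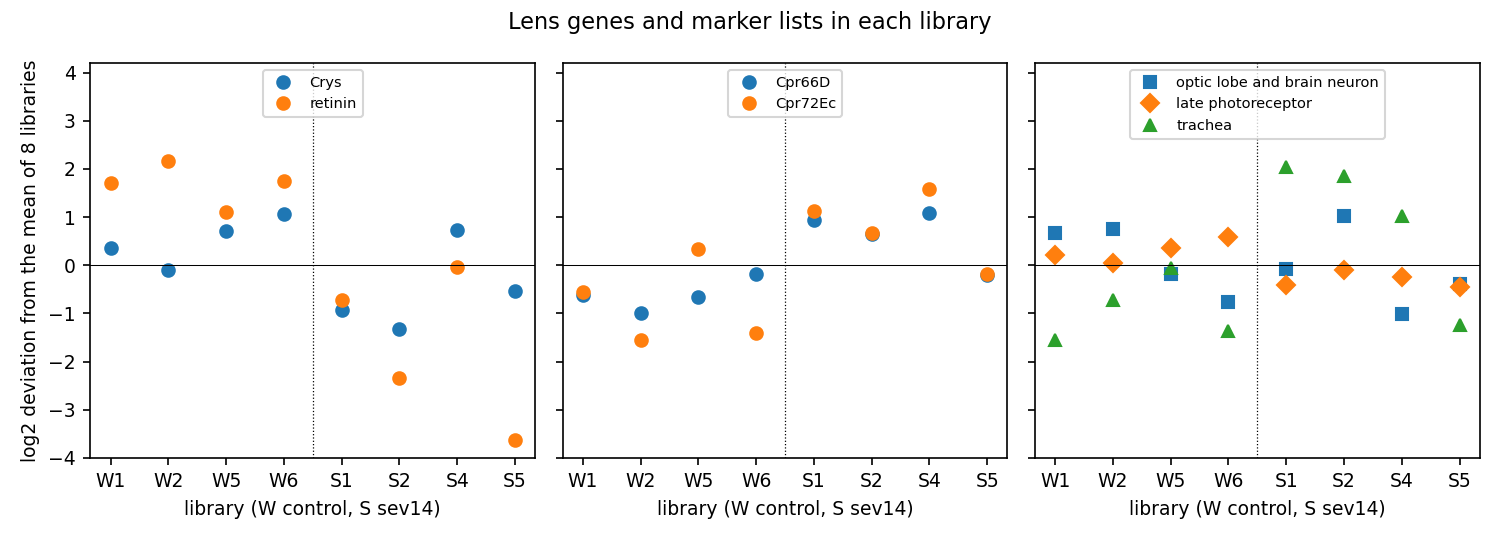
Log2 deviation from the mean of 8 libraries for the lens genes (left and middle) and mean deviation of 3 marker lists (right), with the dotted line between control and sev14 libraries. S4 is the highest sev14 library for all 4 lens genes and the lowest library for the neuron markers, at -1.02.

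The genes around each lens gene were examined within 25 kb, because retinin and Cpr72Ec lie 33105 bases apart on 3L with 12 listed genes between them. No lens gene overlapped another listed gene. Of 12 tested neighbours of retinin, limma and edgeR each called 2 lower and 1 higher in sev14 retinas, and DESeq2 called 2 lower and 3 higher. By limma 1.82% of all tested genes were lower and 2.38% higher. Over all tested genes DESeq2 called 503 higher and 344 lower, and edgeR 228 and 156. Of the 12 neighbours, 5 had an unadjusted limma p under 0.05. The nearest gene on the higher side, CG13056, starts 524 bases after retinin ends and stood at 249, 323, 317 and 250 normalized counts in the control libraries W1, W2, W5 and W6, and at 25.8, 6.28, 32.7 and 40.1 in S1, S2, S4 and S5. The genotypes did not overlap. Its log2 change was -3.64 ± 0.49 (SE; limma adjusted p = 0.00225). Unlike retinin, CG13056 kept its call under all 21 alternative fits. Its lowest library was S2, whereas that of retinin was S5.

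The neuropeptide-like precursor gene Nplp3 ends 13243 bases before retinin starts. It stood at 1531 or more in control and at 231 or less in sev14 libraries (log2 change -3.53 ± 0.24 SE, limma adjusted p = 3.18e-05), also with its call kept under all 21 alternative fits. The noncoding gene CR45893, 10400 bases beyond retinin, was at 0 in W1, W2 and W6 and at 6.72 in W5, and at 14.3 to 146 in sev14 libraries (5.11 ± 0.94 SE, limma adjusted p = 0.0137). The CR45893 call ended with the replicate block, without S1, without both S2 and S5, and without both W6 and S4. It overlaps CG4998, a gene named here after its values were seen, which ranged from 56.3 to 303 in control and from 89.7 to 2532 in sev14 retinas (limma adjusted p = 0.149; 0.00867 by DESeq2), and reads of these overlapping genes cannot be told apart. CG33060, the nearest gene on the lower side of retinin, had reads in S4 alone.

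Around Cpr72Ec, 13 genes were tested, and the 1 that limma called was again CR45893, where 2.38% of all tested genes were called higher. Of the 13, edgeR called 1 higher and DESeq2 called 3 higher, where over all tested genes they called 228 and 503 higher. An unadjusted limma p under 0.05 was found for 4 of the 13. The nearest gene on the higher side, CG4842, stood at 1.12 to 15.9 in control and 26.7 to 49.4 in sev14 libraries, higher in 4 of 4 libraries (2.16 ± 0.67 SE, limma adjusted p = 0.120). Cpr72Eb, 187 bases away on the lower side and of the same cuticle protein family, was between 0 and 13.4 in all libraries and was not tested. None of the 2 tested neighbours of Crys and none of the 7 of Cpr66D was called by limma or edgeR, and DESeq2 called 1 of each set higher. In each set 1 gene had an unadjusted limma p under 0.05. The nearest tested gene to Crys was CR43314, at 122 to 444 in control and 74.4 to 894 in sev14 retinas (limma adjusted p = 0.690). CR43314 passed with the replicate block by column number (adjusted p = 0.0226), and its sign turned in 1 of 21 alternative fits. The nearest genes to Cpr66D were Zasp66 and CG13305, with limma adjusted p values of 0.959 and 0.323, and the sign of Zasp66 turned in 3 of 20 alternative fits. The nearest gene on the other side of Crys, Or33c, was at 0 in every library.

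**Figure D5:**
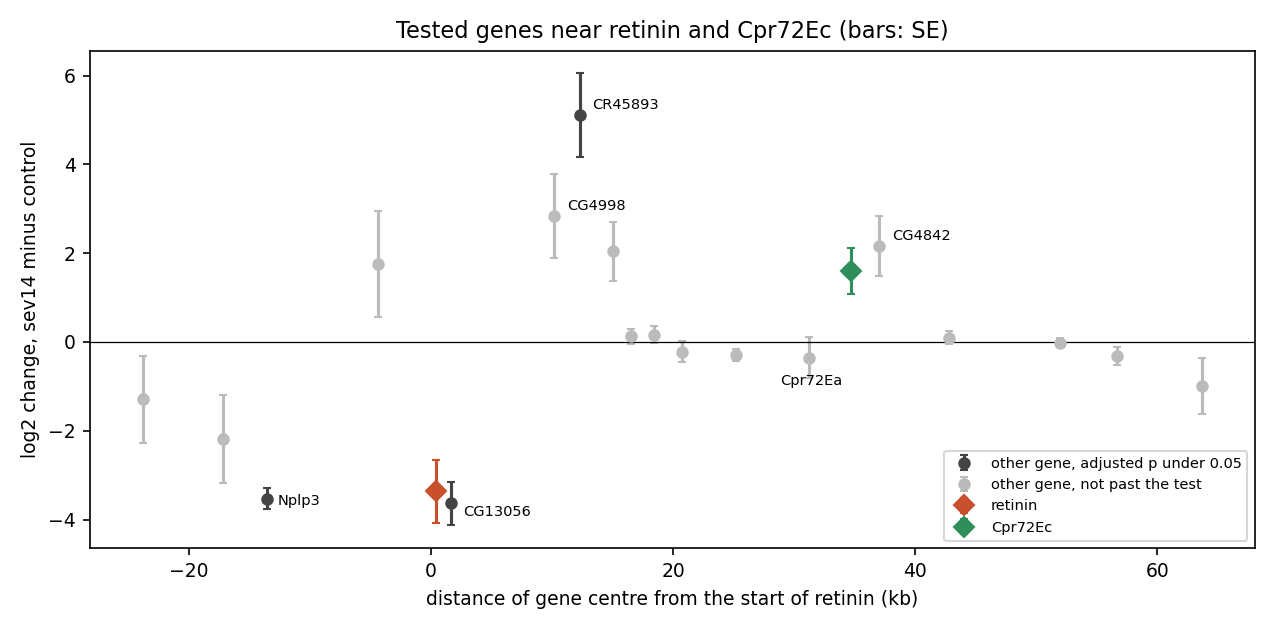
Log2 change (sev14 minus control, bars SE) of the tested genes within 25 kb of retinin or Cpr72Ec, against the distance of the gene centre from the start of retinin in kb. Retinin, CG13056 and Nplp3 lie between -3.37 and -3.64, while CR45893 and Cpr72Ec lie above 0.

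Other genes of the lens and its matrix were counted by list. Of 17 genes of chitin and the apical matrix, all tested, 3 rose and 0 fell by limma, where 2.38% of all tested genes rose and 1.82% fell. The median log2 change was 0.52, against 0.00 over all tested genes. Of the 17, 10 had an unadjusted limma p under 0.05. Gasp, a chitin-binding protein gene, was at 1421 to 2706 in control and 6064 to 10812 in sev14 libraries (1.85 ± 0.23 SE, limma adjusted p = 0.00141). The gene exp (CG13188), which acts with the chitin synthase, rose by 0.59 ± 0.11 (SE; limma adjusted p = 0.0118). The Gasp call held in all 21 alternative fits. The exp call ended under total-read scaling, with the replicate block, without S2 and S5 and without W6 and S4 (adjusted p up to 0.0820). DESeq2 called 6 of the 17 higher and 1 lower, and edgeR 4 higher and 0 lower. Over all tested genes DESeq2 called 503 higher and 344 lower, edgeR 228 and 156, and limma 243 and 186.

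Of the 86 other genes of the cuticle protein families (symbols starting with Cpr, Lcp, Ccp84, Edg or Pcp), 33 passed the filter. Of these 33, 4 rose and 2 fell by limma, against the same 2.38% and 1.82% of all tested genes, and the median log2 change was 0.84. An unadjusted limma p under 0.05 was found for 15 of the 33. The sev14 libraries were not alike in this family: the mean log2 deviation of the 33 genes was 1.05 in S1 and 0.75 in S2. In S4 and S5 it was -0.23 and -0.22, within the control range of -0.75 to 0.25. Cpr97Ea rose by 2.72 ± 0.26 (SE; limma adjusted p = 0.000317), from 330 to 579 in control to 1969 to 4543 in sev14 libraries. Cpr49Ae fell by 7.56 ± 0.76 (SE; limma adjusted p = 0.000396), from 635 to 1638 in control to 0 to 14.7 in sev14 libraries. Both calls held in all 21 alternative fits, and DESeq2 called 8 of the 33 higher and 3 lower. Over all tested genes DESeq2 called more than limma, 503 higher and 344 lower. Cpr66D and Cpr49Ae, of the same family, thus differed in opposite directions between the genotypes. The remaining 53 of the 86 were too low to be tested.

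Regulators and markers of the cells that secrete the lens were counted in the same way, against 2.38% of all tested genes higher and 1.82% lower by limma. Of 8 regulators (ct, sv, lz, pros, B-H1, B-H2, gl and so) none was called by limma, edgeR or DESeq2. None of the 8 had an unadjusted limma p under 0.05, and the median log2 change was -0.01. The lists share genes: ct, sv, lz and pros are also cone cell markers, and gl and so are also retina markers. Their counts are therefore not separate results. Of 7 cone cell markers 1 fell: wrapper, which encodes an immunoglobulin-family surface protein, by 0.76 ± 0.14 on the log2 scale (SE; limma adjusted p = 0.0146), a call that ended without W5, without S2 and S5 and without W6 and S4. The gene wrapper is also on the glial list, so its fall cannot be assigned to cone cells. Among the other cone cell markers the lowest limma adjusted p was 0.667. Of 13 genes of pupal timing, which respond to the moulting hormone ecdysone, none was called by limma, edgeR or DESeq2, and 1 had an unadjusted limma p under 0.05. Of 10 tested late photoreceptor genes 1 fell, the opsin gene Rh6 (-3.89 ± 0.64 SE, limma adjusted p = 0.00754). Rh6 stood at 30.1 to 58.3 normalized counts in control and 0 to 3.22 in sev14 libraries, so the size of its change rests on few reads. The Rh6 call ended with the replicate block and without W6 and S4.

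For each lens gene the 3 genes with the most similar levels over the 8 libraries were found by Pearson r of log2(normalized count + 1), among 9071 genes with a mean of at least 20. The r values are descriptions over 8 libraries of both genotypes, which also differed in depth. A genotype difference that a pair of genes shares therefore enters their r. For Crys these were CG14476 (r = 0.98), P5CDh1 (0.98) and Synd (0.98), none of which was called by limma. P5CDh1, at 3794 ± 585 and 3167 ± 757, also followed Crys within the genotypes, with r = 0.99 over deviations from the genotype means. For retinin they were CG8891 (0.99), CG31436 (0.98) and ItgalphaPS4 (0.97), an integrin subunit gene, which were all lower in sev14 retinas by limma (adjusted p 0.0216, 0.0324 and 0.0245). Their lower level follows from the selection, because retinin itself differed between the genotypes, so their calls are not separate results. These calls ended in 4, 10 and 8 of 21 alternative fits.

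For Cpr66D the most similar genes were Osi7 of the Osiris family (r = 0.99), the noncoding CR45028 (0.98) and Clect27 (0.98). Osi7 stood at 71647 ± 13762 in control and 147325 ± 34270 in sev14 libraries (log2 change 1.03, limma adjusted p = 0.106; called by edgeR and DESeq2). Clect27, a C-type lectin gene, had the highest r with Cpr66D of all 9071 genes over deviations from the genotype means (0.99). For Cpr72Ec they were Grip75 (0.95), Nup214 (0.94) and Pal1 (0.94), with limma adjusted p values of 0.227, 0.121 and 0.391. Among the lens genes themselves, r over the 8 libraries was 0.82 between Cpr66D and Cpr72Ec and 0.68 between Crys and retinin. It was between -0.49 and -0.29 for each gene of one pair against each of the other. Over deviations from the genotype means r was above 0 for all 6 pairs, from 0.35 between Crys and retinin to 0.75 between retinin and Cpr66D.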

How the data were processed

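Polyadenylated RNA was sequenced as paired ends on a MiSeq, per the labels' protocols. Tools named in the submitters' processing notes are DESeq2 1.32.0, RSEM 1.2.31, HISAT2 2.0.3, cutadapt 1.9.1 and FastQC 0.11.4, and the builds named are BDGP6 and dm6. The deposited signal is a normalized count per gene and library, made by the authors. The values are whole multiples of 1 read in each library, within 0.05 reads for 99.98% or more of values above 0, so reads were recovered by division. The authors' deposited log2 fold changes and p-values were copied for comparison, and the deposited score was not used. Whether counting used strand: not given in the sources used here.

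The W or S in a column name gave its genotype, and the column numbers are not those of the sample titles. Genes averaging 5 or more normalized counts entered a 2-sided limma fit (limma 3.58.1, R 4.3.3) of log2(normalized count + 1) with a trend on mean level. An exact permutation test with 70 arrangements was also run per member. Alternatives changed the scaling (TMM, recomputed size factors, total reads), the pseudocount (0.5 or 5), the filter (none or 20), the tool (DESeq2 1.42.0 or edgeR 4.0.16 on recovered reads) or the libraries used, or added array weights or a block for the column number. The fits were also run on simulated counts with known changes, the same dispersion for every gene and no outlying library. These settings differ from the libraries here, so that run is no support for the results of single genes.

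The members and lists were chosen with earlier results of these data known. Genes were named by a rule: the 4 members, sev and w, the 3 most similar genes and the nearest or called neighbours of each member, and up to 2 called genes per list. Lists of fat body, haemocyte, glial, muscle and epidermal markers were also counted (in the closing section). Of 192 list entries 191 were matched and the other was not analysed here. A comparison of protein sequences that had been planned was not run. Coordinates and symbols are those of the deposited table, and exon and protein lengths come from the Ensembl BDGP6 annotation, in which the members have the same coordinates. Python 3.11.15 and matplotlib 3.10.9 were used for tables and figures.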

Additional observations from a re-analysis of the deposited data

Results flagged for a closer look

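In 1 of the 66 groups of 4 libraries examined over the named genes, a library stood apart from the other 3. CR45893, the noncoding gene near retinin, was at 6.72 normalized counts in control library W5 and at 0 in the other 3 control libraries. Because those 3 were at 0, any value above 0 in W5 would have been flagged, and W5 held 6 reads. The rule's chance rate of about 1 in 20 groups does not apply to such a group.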

How the results depend on the processing

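Over 22 alternatives each, no log2 difference of the 4 lens genes changed sign. Cpr72Ec stayed outside the threshold in all 22 (limma, edgeR or DESeq2 adjusted p 0.0581 to 0.392). Leaving out each library gave -1.44 to -0.76 for Crys, -3.92 to -2.72 for retinin and 1.07 to 1.50 for Cpr66D, with adjusted p of 0.0228 to 0.437, 0.00921 to 0.0814 and 0.00641 to 0.125. Crys passed with the replicate block by column number (-1.25, adjusted p = 0.00306) and without W6 and S4 (-1.25). Same-numbered libraries deviated together with r of 0.0869, 0.190 and 0.0625, so the numbers were not taken as pairs; the block changed none of the other 3 calls, and libraries W6 and S4 have no partner in it. The Cpr66D call ended with total-read scaling (1.09), no filter (1.23), without W6 and S4 (1.21) and in the exact permutation test (1.23, p = 0.0571). Genes higher in sev14 numbered 243 (503 by DESeq2, 145 without S2 and S5, 156 without W6 and S4, and 137 to 251 without 1 library, the lowest without S1), and genes lower 186 (344 by DESeq2, 106 without W6 and S4, and 111 to 189 without 1 library, 111 to 120 of these without a control library). With the block there were 195 higher and 130 lower, and with total-read scaling 177 higher and 268 lower. The causes were not tested. Depth limits retinin and Cpr72Ec, with 93 and 124 reads in their lower genotype.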

Other observations

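Other cell types can come along in a dissected retina, and their markers were counted beside the lens genes. Of all tested genes, 2.38% rose and 1.82% fell by limma, DESeq2 called 503 higher and 344 lower, and edgeR called 228 and 156. Of 7 fat body genes 1 rose and 0 fell by limma and by edgeR, while DESeq2 called 3 higher and 4 had an unadjusted limma p under 0.05. The limma call was Lsp1alpha, a larval serum protein gene (2.33 ± 0.33 SE, limma adjusted p = 0.00299). The 7 fat body genes had summed levels of 18337 to 46093 in control and 26070 to 76170 in sev14 libraries. Of 5 glial genes 2 fell by limma and by edgeR, while DESeq2 called 3 lower and 1 higher and 4 had an unadjusted limma p under 0.05. The limma calls were wrapper, which is also on the cone cell list, and the blood-brain barrier transporter gene Mdr65. The log2 change of Mdr65 was -0.69 ± 0.16 (SE; limma adjusted p = 0.0425, with a range over the alternatives of 0.00140 to 0.188). The other 2 with an unadjusted limma p under 0.05, named after their values were seen, were repo and nrv2. The log2 difference was -0.62 ± 0.18 for repo (SE; limma adjusted p = 0.0940) and 0.53 ± 0.14 for nrv2 (limma adjusted p = 0.0686). The libraries of the genotypes did not overlap for either gene, as for 11.1% of all tested genes. None of 4 tested haemocyte, 6 muscle, 6 epidermal and 7 neuron genes was called by limma or edgeR, and DESeq2 called 1 muscle gene lower and none of the others. The numbers at an unadjusted limma p under 0.05 were 1, 0, 0 and 0. The epidermal genes, among them the hair genes sha and mwh, had summed levels of 1902 to 2924 in control and 2350 to 3472 in sev14 libraries, which overlap.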
